A study of Mus musculus with 10 samples.

Results

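Siglecs are cell surface lectins of the immunoglobulin superfamily that bind sialic acids, the acidic sugars that cap glycan chains on most vertebrate cells. Many of them carry inhibitory motifs in their cytoplasmic tails that recruit the phosphatases SHP-1 and SHP-2, whereas others have short tails and pair with the activating adaptor DAP12. In tissues they are best known on leukocytes, where different members mark different lineages. The genes described here were *Siglec1*, *Cd33*, *Siglech*, *Siglece*, *Siglecf*, *Siglecg* and *Cd22*, 7 of the 55487 genes in the count tables, taken by gene symbol. They were chosen by family and selected on their read counts in CebpbΔM and WT macrophages, so for that comparison their levels and fold changes are a description and no *P* is given.

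The values are RNA sequencing counts of 10 libraries from mammary glands of 10-wk-old female BALB/c mice staged in diestrus, the progesterone-high phase of the reproductive cycle. All mice carried floxed alleles of *Cebpb*, the gene of the transcription factor C/EBPβ. WT mice lacked the Cre transgene (Csf1r-Cre neg), and CebpbΔM mice (Csf1r-Cre pos), labeled "C/EBPb knockdown", expressed Cre from the *Csf1r* promoter, which is active in cells of the mononuclear phagocyte lineage. Mammary epithelial cells (MECs), kept by removing cells with markers of other lineages, gave 2 WT and 2 CebpbΔM libraries, and macrophages, selected with antibody to F4/80, gave 2 WT and 4 CebpbΔM libraries. The question was how the loss of C/EBPβ in macrophages changes gene expression in these cells and in the adjacent epithelium. Whether the libraries came from separate mice is not given in the sources used here, so a *P* may measure technical spread.

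Total counts were between 16935000 and 20174722 in the macrophage libraries and between 25310926 and 27008166 in the MEC libraries. *Cebpb* was too low in macrophages to check the labels. It had 13 and 15 counts in WT and 4, 5, 13 and 16 counts in CebpbΔM macrophages, so the libraries are called here by their labels. The defining macrophage genes *Adgre1* (F4/80), *Csf1r* and *Mertk* were present in every macrophage library, with at least 3502, 14709 and 470 counts. Epithelial RNA was present there too, with *Krt8*, a luminal keratin, at 26105 to 36339 counts in CebpbΔM and at 55317 and 67576 counts in WT libraries. Other epithelial genes went both ways. *Krt18*, another keratin gene, had means of 2730 CPM in WT and 1540 CPM in CebpbΔM libraries. *Krt14*, a basal keratin, was at 59.1 and 191 CPM in WT and 42.7 to 711 CPM in CebpbΔM libraries, and *Csn2*, a milk casein, had 0 and 1 counts in WT and 4685, 344, 10 and 0 counts in CebpbΔM libraries 4 to 7.

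6 of the 7 genes lie on chromosome 7 of the mouse genome (GRCm38). *Siglecf* (chr7:43351341-43359531), *Siglecg* (chr7:43408204-43418358), *Cd33* (chr7:43524216-43544428) and *Siglece* (chr7:43651070-43660161) follow each other with gaps of 48.7, 106 and 107 kb. *Cd22* (chr7:30865402-30880342) lies beside *Mag*, another family gene, 18.8 kb away, and *Siglech* (chr7:55768178-55778925) lies 12100 kb past *Siglece*. *Siglec1* (chr2:131069220-131086765) stands alone on chromosome 2. RefSeq start sites (GRCm38.p6) were found for 6 of the 7 genes, all but *Siglec1*, and the 250 bases before each were searched for TTNNGNAA, a loose form of the C/EBP recognition sequence, on both strands. A match was present before *Siglech*, *Siglece* and *Siglecf*, against 36.8% of all 32851 promoters of that length. The stricter form TTNNGCAA, every match of which also matches the loose form, was found only before *Siglech* among these genes and in 9.56% of all promoters. That stretch is shown because *Siglech* had the largest fold change between the macrophage genotypes, with the match, 169 to 162 bases before the start, in capitals. A match is a description of the letters and not of a bound site.

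Siglech promoter, chr7:55767934-55768177, plus strand: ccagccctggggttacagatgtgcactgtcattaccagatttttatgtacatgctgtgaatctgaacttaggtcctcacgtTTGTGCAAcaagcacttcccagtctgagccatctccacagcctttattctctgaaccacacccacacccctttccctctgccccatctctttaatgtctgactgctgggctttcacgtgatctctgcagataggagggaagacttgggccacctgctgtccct

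The stretches before *Siglecf* and *Cd33* are shown because they share the longest common run among these promoters, 16 bases, in capitals. The run begins 27 bases before the *Siglecf* start and 157 bases before the *Cd33* start. The 57 bases of the *Cd33* window and the 6 bases of the *Siglech* window that fall in exons of the counted gene models are left out.

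Siglecf promoter, chr7:43351091-43351340, plus strand: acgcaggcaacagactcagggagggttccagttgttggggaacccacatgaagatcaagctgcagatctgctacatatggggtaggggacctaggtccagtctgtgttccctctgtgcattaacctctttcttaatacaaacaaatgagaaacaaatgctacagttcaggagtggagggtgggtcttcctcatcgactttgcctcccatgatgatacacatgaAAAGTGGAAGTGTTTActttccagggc

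Cd33 promoter, chr7:43533172-43533364, minus strand: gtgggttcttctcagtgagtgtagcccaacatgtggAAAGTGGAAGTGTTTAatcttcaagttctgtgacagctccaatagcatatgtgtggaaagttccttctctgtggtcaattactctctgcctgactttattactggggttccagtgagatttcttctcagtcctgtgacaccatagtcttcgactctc

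All 7 genes were read in macrophages and at most marginally in MECs, where no library held more than 4 counts of any of them. In WT, *Siglec1*, which encodes the sialic acid receptor CD169 of tissue macrophages, had 1870 and 3697 counts in macrophages and 3 and 4 counts in MECs. The pooled level, as counts scaled to library size (CPM), was 1080-fold higher in macrophages, with a 95% exact binomial interval of 526 to 2700 that covers counting error only. *Cd33*, a sialic acid receptor of myeloid cells, had 715 and 774 counts against 3 and 0, a 676-fold difference (interval 231 to 3280). *Siglech*, which encodes a DAP12-coupled receptor known from plasmacytoid dendritic cells and microglia, had 333 and 577 counts against 2 and 0, a 620-fold difference (interval 171 to 5130). *Siglece*, which encodes an inhibitory receptor of myeloid cells, had 179 and 275 counts against 1 and 1, a 309-fold difference (interval 85.1 to 2560). In each of these genes the lowest WT macrophage library lay far above every MEC library. The WT MEC counts of *Cd33* and *Siglech* all came from library 1, so the size of their folds rests on it. Their fitted log2 fold changes of 9.09 and 8.90 became 8.16 and 7.99 without WT MEC library 3, and 12.6 and 11.9 without library 1, where the remaining library stood at 0 and the fitted value is no bound.

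The other members were scarce also in macrophages. *Siglecf*, an inhibitory receptor gene of eosinophils and alveolar macrophages, had 29 and 37 counts in WT macrophages and 0 in WT MECs, which at the floor of 3 counts over the group is at least 30-fold higher. *Siglecg* and *Cd22*, inhibitory receptors known from B cells, had 42 and 20 counts in WT macrophage library 4 and 0 counts in library 5, and none in WT MECs. By the same floor their pooled levels were at least 19.1-fold and 9.08-fold higher, a difference that rests on library 4 alone.

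To compare the cell types in WT, the quasi-likelihood (QL) test of edgeR was fitted to all 10 libraries. 5 of the 7 genes were called higher in macrophages at an adjusted *P* of 0.05 or less, against 14.8% of all 18323 genes tested (25.5% in either direction). The same 5 genes had no overlap between WT macrophage and WT MEC libraries, against 33.8% of all genes higher in macrophages and 65.1% in either direction. All 7 passed the filter of 1 CPM in 2 libraries through macrophage libraries alone, so this count and the adjusted *P* values only describe where they were detected. *Siglecg* and *Cd22* needed CebpbΔM libraries to pass, and with the WT libraries alone 5 of the 7 were tested. The adjusted *P* was 4.82e-07 for *Siglec1*, 3.46e-06 for *Siglech*, 3.29e-06 for *Cd33*, 2e-06 for *Siglece* and 0.00303 for *Siglecf*. It was 0.0708 for *Siglecg* and 0.0755 for *Cd22*, whose library 5 stood at 0. Cell type, selection procedure and count table go together in this comparison and cannot be told apart.

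**Figure D1:**
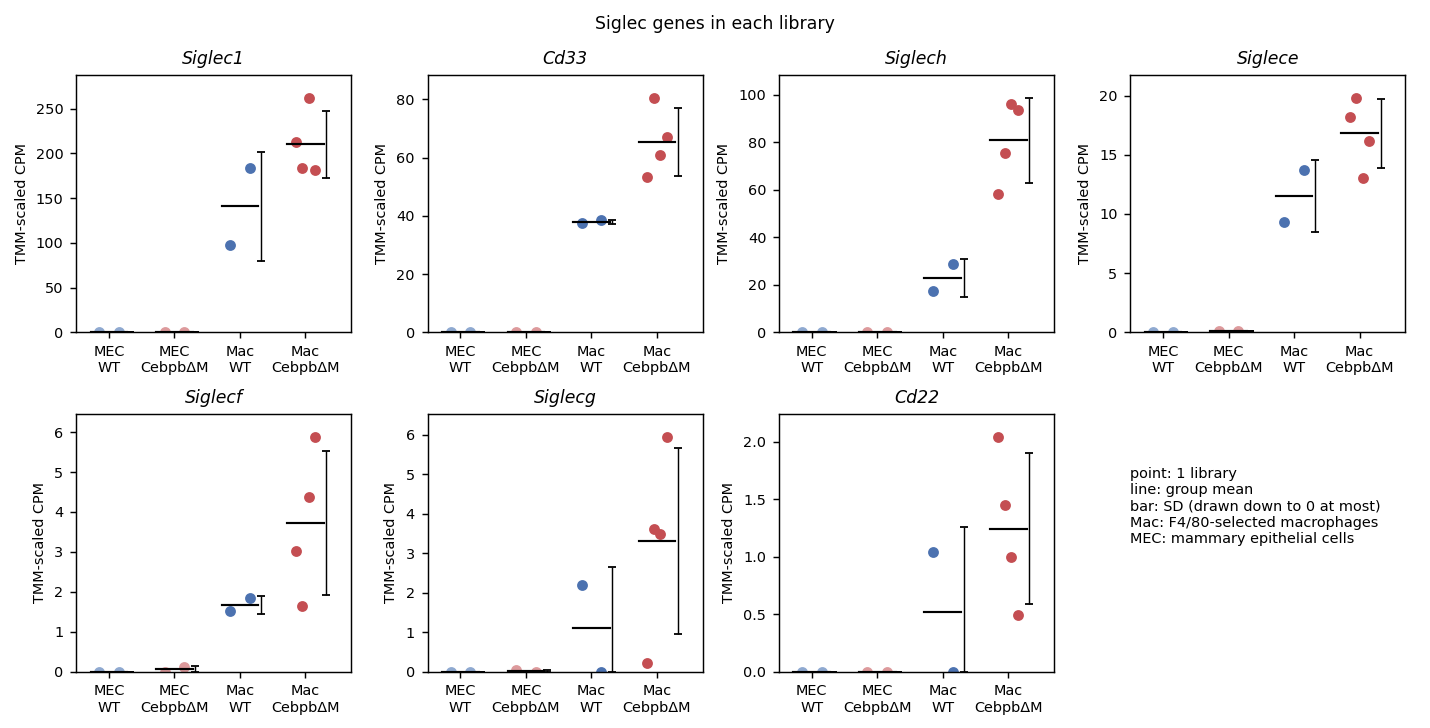
CPM, scaled by the trimmed mean of M-values (TMM), of each Siglec gene in every library (points), with the group mean (line) and SD (bar), by cell type and genotype. All MEC libraries sit at or near 0, and *Siglech* and *Cd33* are the genes whose CebpbΔM macrophage libraries all lie above both WT libraries.

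Levels can be compared between genes once they are divided by exonic length. In WT macrophages *Siglec1* was highest at 19.7 ± 8.49 CPM per kb (SD, n = 2), followed by *Siglech* at 6.81 ± 2.36, *Siglece* at 6.22 ± 1.65 and *Cd33* at 4.88 ± 0.099 CPM per kb. The libraries of *Siglech* and *Siglece* overlapped, so their order is not separated from the spread, and *Cd33*, with 4.81 and 4.95 CPM per kb, lay just under both. *Siglecf* (0.601 ± 0.082), *Siglecg* (0.229 ± 0.323) and *Cd22* (0.103 ± 0.146) had the lowest levels per kb, and *Siglecg* and *Cd22* overlapped. In CebpbΔM macrophages (n = 4) the order began with *Siglec1* at 29.4 ± 5.24 and *Siglech* at 23.9 ± 5.26 CPM per kb, whose ranges overlapped. *Siglece* at 9.08 ± 1.6 and *Cd33* at 8.43 ± 1.51 CPM per kb came next and overlapped with each other. *Siglech* thus overlapped with *Siglece* in WT and with *Siglec1* in CebpbΔM macrophages.

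In the macrophage genotype comparison, *Siglech* had the widest separation. Its level was 17.4 and 28.7 CPM in WT libraries 4 and 5, and 58.1, 75.5, 96.3 and 93.8 CPM in CebpbΔM libraries 4 to 7. The lowest CebpbΔM library was above the highest WT library, and the log2 fold change was 1.81 ± 0.3 (SE), or 3.51-fold. *Cd33* showed the same arrangement at a smaller size, with 37.4 and 38.5 CPM in WT and 53.2, 80.5, 60.8 and 67.2 CPM in CebpbΔM libraries. Its log2 fold change was 0.79 ± 0.206, or 1.73-fold.

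*Siglec1* and *Siglece* overlapped between the genotypes. *Siglec1* was at 97.7 and 184 CPM in WT and at 213, 184, 262 and 182 CPM in CebpbΔM libraries, so that WT library 5 lay among the CebpbΔM libraries. Its log2 fold change of 0.58 ± 0.277 depended on the WT library used, since it was 0.20 without WT library 4 and 1.11 without WT library 5. *Siglece* was at 9.35 and 13.7 CPM in WT and at 18.2, 19.8, 13 and 16.2 CPM in CebpbΔM libraries, with WT library 5 just above CebpbΔM library 6. Its log2 fold change was 0.54 ± 0.281, and it was 0.30 without WT library 4 and 0.84 without WT library 5.

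The eosinophil- and B-cell-associated genes were spread over a range within the CebpbΔM group that was wider than the difference between group means. *Siglecf* had 58, 33, 79 and 95 counts in CebpbΔM libraries against 29 and 37 in WT (log2 fold change 1.15 ± 0.595). *Siglecg* had 4, 72, 63 and 96 counts in CebpbΔM libraries and 42 and 0 in WT, which gave 1.59 ± 1.48. *Cd22* had 39, 29, 18 and 8 counts in CebpbΔM libraries and 20 and 0 in WT, which gave 1.25 ± 1.32. Both values rested on WT library 5, without which they were 0.59 for *Siglecg* and 0.26 for *Cd22*, and neither gene had a value without WT library 4. Their order across libraries was not shared, since *Siglecg* was lowest and *Cd22* highest in CebpbΔM library 4.

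All 7 log2 fold changes were positive, with a median of 1.15 beside 0.00 for all genes tested. *Siglecg* and *Cd22* reached 1 CPM in only 1 WT library each and needed CebpbΔM libraries to be tested. None of the 7 was called by the QL test, which called 0 of the 17772 genes (0%), although 1534 had an unadjusted *P* under 0.05. The likelihood ratio test called *Siglech*, where 0.625% of genes were called higher in CebpbΔM, and DESeq2 called *Siglech* and *Cd33*, where 0.928% were. The groups did not overlap in 2 of the 7 genes, both higher in CebpbΔM, as in 9.67% of all genes, but the genes were picked with this contrast in view.

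**Figure D2:**
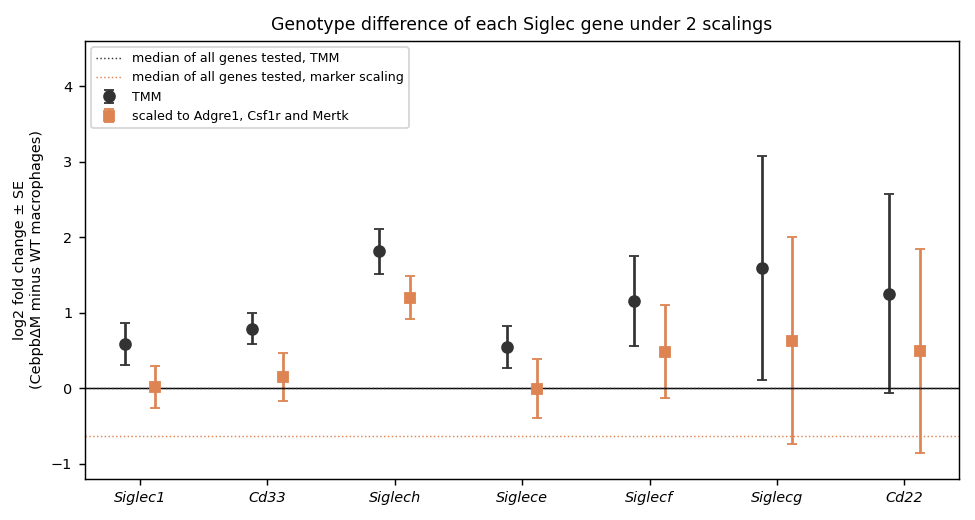
Log2 fold change ± SE of each Siglec gene between CebpbΔM and WT macrophages under TMM scaling (circles) and when libraries were scaled to their counts of *Adgre1*, *Csf1r* and *Mertk* (squares), with the median of all genes under each scaling (dotted). Under the marker scaling *Siglech* stays at 1.2 while *Siglec1* and *Siglece* lie at 0.02 and -0.01.

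The level of macrophage marker genes moved with genotype, and the part of macrophage content in the differences above was not tested as a cause. All 14 genes of a macrophage marker list had positive log2 fold changes (median 0.65). The QL test called 0 of them, the likelihood ratio test 1 and DESeq2 4, with 8 at an unadjusted *P* under 0.05. Over all 17772 genes the same counts were 0, 138, 201 and 1534. The summed level of the list was 4570 and 7040 CPM in WT and 8200 to 11000 CPM in CebpbΔM libraries. The summed level of 10 epithelial genes was 6560 and 6650 CPM in WT and 3860 to 5860 CPM in CebpbΔM libraries, although 6 of the 9 tested had positive log2 fold changes and the median was 0.60. In such bulk samples fewer cells of a type and less RNA per cell cannot be told apart.

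The genes were therefore also given per 1000 counts of *Adgre1*, *Csf1r* and *Mertk*. Most of these counts were of *Csf1r*, with 14709 of 18681 in WT library 4 and 22515 of 27899 in CebpbΔM library 4. The scale thus follows mainly *Csf1r*, the gene whose promoter drives Cre in CebpbΔM mice. *Siglech* had 17.8 and 20.1 counts per 1000 marker counts in WT and 39.9, 44.5, 43 and 47.2 in CebpbΔM libraries. The groups remained apart, with means of 19 ± 1.63 (SD, n = 2) and 43.6 ± 3.04 (n = 4) and a 2.29-fold difference. The share of all genes without overlap on this scale was not computed, and *Siglech* was picked with this contrast in view. With libraries scaled to these markers, 4870 of 17772 genes had an unadjusted *P* under 0.05 by the QL test, against 1534 with TMM. The spread within each group was small on this scale, and the range of the CebpbΔM libraries narrowed from that of the CPM values.

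For the other abundant members the genotypes overlapped on this scale. *Siglec1* had 100 and 129 counts per 1000 in WT and 91.3 to 146 in CebpbΔM libraries, a ratio of means of 1.02. *Cd33* had 27 and 38.3 in WT and 27.2 to 47.5 in CebpbΔM libraries, a ratio of 1.11, so that its separation in CPM was not present per marker count. *Siglece* had 9.58 and 9.6 in WT and 5.79 to 12.5 in CebpbΔM libraries, a ratio of 0.994. The genotypes also overlapped for *Siglecf*, *Siglecg* and *Cd22*.

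**Figure D3:**
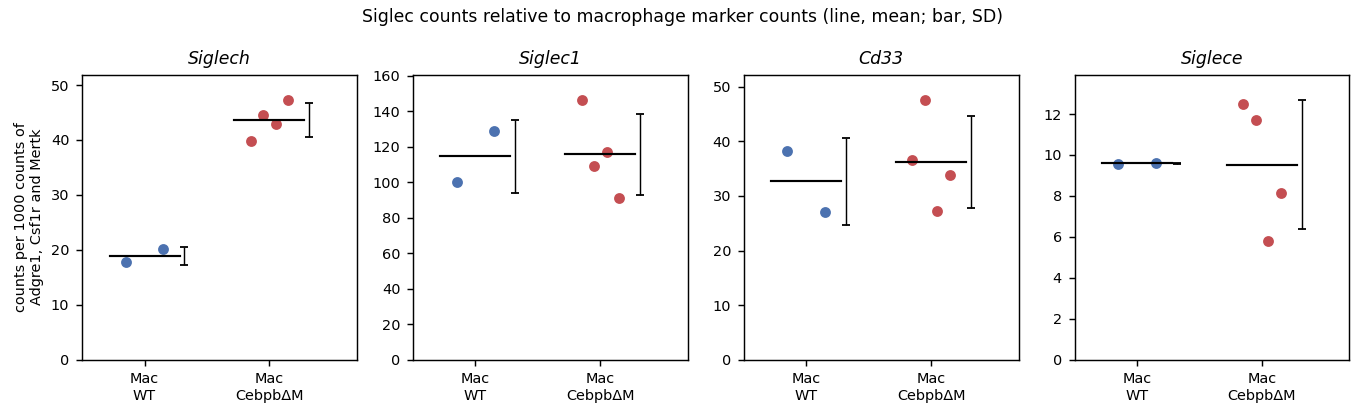
Counts of *Siglech*, *Siglec1*, *Cd33* and *Siglece* per 1000 counts of *Adgre1*, *Csf1r* and *Mertk* in each macrophage library (points), with mean (line) and SD (bar). *Siglech* lies at 17.8 and 20.1 in WT and between 39.9 and 47.2 in CebpbΔM libraries, whereas the other 3 genes overlap.

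The make-up of the family's own reads does not depend on how libraries are scaled. *Siglec1* supplied 58.7% and 69% of the summed counts of the 7 genes in WT and 48.9% to 61.3% in CebpbΔM libraries. *Siglech* supplied 10.4% and 10.8% in WT and 16.7%, 20.6%, 21.9% and 25.3% in CebpbΔM libraries, with no overlap. *Cd33* supplied 14.4% and 22.4% in WT and 13.8% to 21.9% in CebpbΔM libraries. *Siglece* supplied 2.94% to 5.61% over all 6 libraries, and *Siglecf*, *Siglecg* and *Cd22* each supplied at most 1.6%.

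**Figure D4:**
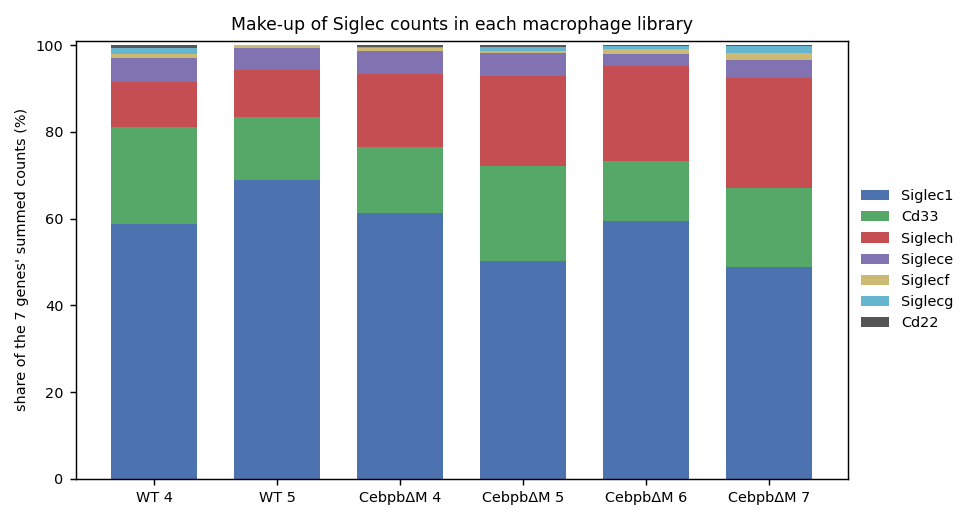
Share of the summed counts of the 7 Siglec genes that each gene took in every macrophage library, in percent. The *Siglech* share is 10.4% and 10.8% in the WT libraries and between 16.7% and 25.3% in the CebpbΔM libraries.

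Several members are used as markers of cells other than macrophages, so the genes that define those cells were read beside them. For plasmacytoid dendritic cells, *Cox6a2* had 1 to 7 counts, *Klk1* 0 to 14, *Ccr9* 0 to 30 and *Pacsin1* 12 to 92 counts in the macrophage libraries, against 333 to 1740 counts of *Siglech*. In CebpbΔM library 6, where *Siglech* had its highest count, *Pacsin1* (92 counts) and *Klk1* (14 counts) were also at their highest, *Ccr9* was at 0 and *Cox6a2* had 1 count. The summed level of the 12-gene list was 337 and 682 CPM in WT and 307 to 669 CPM in CebpbΔM libraries, and 5 of the 8 tested genes had positive log2 fold changes. Most of that sum was *Ly6d* (182 CPM in WT and 142 CPM in CebpbΔM) and *Tcf4* (197 and 189 CPM), and the sum was as high in WT MECs, at 653 and 749 CPM, so its overlap between genotypes says little about these cells. Their part in the *Siglech* values was not tested.

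For B cells, *Ms4a1* and *Pax5* had 0 counts in both WT libraries and at most 17 and 10 counts in CebpbΔM libraries, at or near 0 beside *Siglecg* counts of up to 96. Summed over 11 genes the list was at 33.9 and 35 CPM in WT and 39.3 to 49.1 CPM in CebpbΔM libraries, without overlap, and all 5 tested genes had positive log2 fold changes. *Bank1*, an adaptor of B cell receptor signaling, made up most of it with 380 to 681 counts per library and overlapped between the genotypes. *Fcmr*, of the same list, had 0 counts in both WT libraries and 41, 30, 26 and 150 counts in CebpbΔM libraries 4 to 7. It was highest in library 7, as was *Siglecg*, and the part of B cells in the *Siglecg* and *Cd22* values was not tested. The QL test called 0 genes of the B cell list, with 1 at an unadjusted *P* under 0.05 and 1 called by each of the likelihood ratio test and DESeq2. For eosinophils, *Epx* was at 0 in all libraries but CebpbΔM library 5 (10 counts), and *Il5ra* had 0 to 62 counts. *Ccr3* had 21 and 32 counts in WT and 19, 37, 13 and 98 in CebpbΔM libraries, and was highest in library 7, as was *Siglecf*. The eosinophil list summed to 27.5 and 40.2 CPM in WT and to 46 to 106 CPM in CebpbΔM libraries. Most of it was *Ear2*, a ribonuclease gene, at 16.5 and 21.3 CPM in WT and 33.5 to 85.6 CPM in CebpbΔM libraries, while *Alox15* had a log2 fold change of -0.23 ± 0.484 (adjusted *P* 0.941). The QL test called 0 of its 3 tested genes, with 1 at an unadjusted *P* under 0.05 and 1 called by each of the other tests, and the part of these genes in the *Siglecf* values was not tested.

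**Figure D5:**
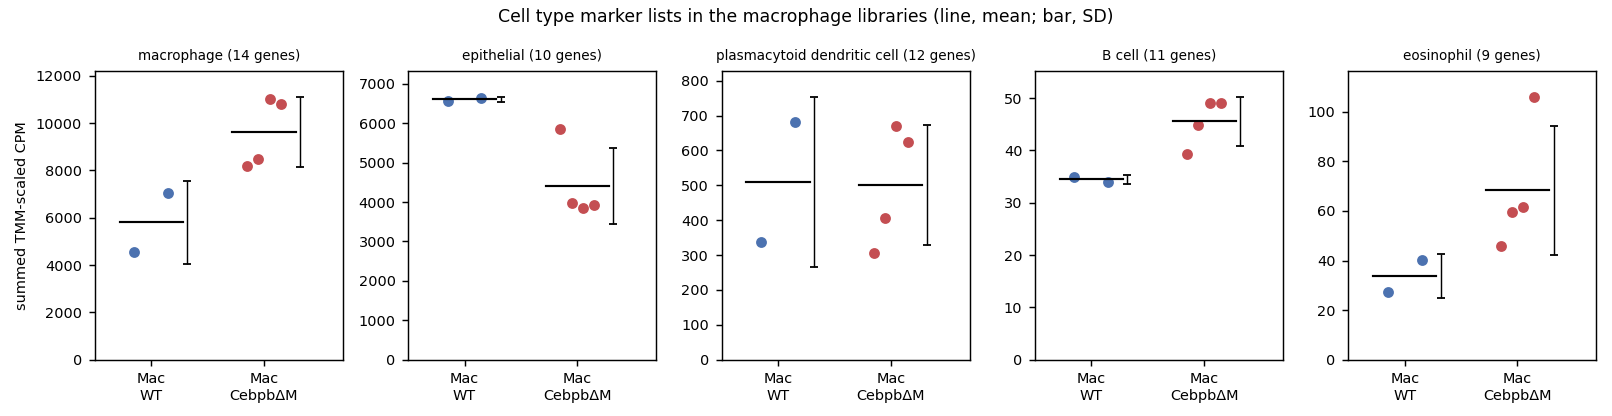
Summed TMM-scaled CPM of 5 marker lists in each macrophage library (points), with mean (line) and SD (bar). The sums do not overlap between genotypes in the macrophage, epithelial, B cell and eosinophil lists, the last mostly *Ear2*, and overlap in the plasmacytoid dendritic cell list, which is mostly *Ly6d* and *Tcf4*.

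The signaling partners of the receptors were present in macrophages. *Tyrobp*, which encodes DAP12, *Syk*, the kinase it recruits, *Inpp5d*, a lipid phosphatase, *Ptpn6*, which encodes SHP-1, and *Lyn*, the kinase that phosphorylates inhibitory motifs, were called higher in WT macrophages than in WT MECs. These were 5 of the 9 genes of an adaptor and signaling list, against 14.8% of all genes called higher in macrophages, with a median log2 fold change of 1.65 beside 0.06 for all genes. *Tyrobp*, *Syk* and *Inpp5d* lay under the filter in MECs, so their calls describe where they were detected. In WT MECs *Syk* was at 0.0608 CPM and *Inpp5d* at 0.688 CPM. *Tyrobp* was at 91.1 and 0.365 CPM in macrophages and MECs, with a log2 fold change of 7.94 ± 0.405 and an adjusted *P* of 6.26e-07. *Ptpn6* was at 92.8 and 22 CPM, a log2 fold change of 2.07 ± 0.223 (adjusted *P* 7.01e-05), so that MECs held reads of the phosphatase beside at most 4 counts of each receptor. *Ptpn11*, which encodes SHP-2, was at 23.2 and 35.6 CPM and was not called (adjusted *P* 0.145).

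In the macrophage genotype comparison *Tyrobp* had 1828 and 1908 counts in WT and 2162, 3145, 2815 and 3265 counts in CebpbΔM libraries. Its log2 fold change was 0.72 ± 0.232 with an adjusted *P* of 0.515, a smaller difference than that of *Siglech*. *Hcst*, the related adaptor DAP10, was at 1.14 CPM in WT and 2.97 CPM in CebpbΔM libraries (log2 fold change 1.37 ± 0.603, adjusted *P* 0.582). *Ptpn6* was at 96.9 and 88.9 CPM, with a log2 fold change of -0.12 ± 0.185 and an adjusted *P* of 0.905.

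Of the genes that make the sialylated ligands, 7 of the 15 sialyltransferase entries tested, of 21 listed, were called higher in WT macrophages and 0 lower, against 14.8% and 10.7% of all genes, with a median log2 fold change of 1.16. *St8sia4*, a polysialyltransferase, differed most, at 17.7 and 0.162 CPM (log2 fold change 6.73 ± 0.47, adjusted *P* 3.31e-06). It lay under the filter in MECs, so its call describes where it was detected. *St6gal1*, which adds the α2,6-linked sialic acid that CD22 binds, was at 58.4 and 31 CPM (0.91 ± 0.272, adjusted *P* 0.0312). Of the 8 sialic acid supply genes tested, *Cmah*, which makes the glycolyl form of sialic acid, was at 31.9 and 2.44 CPM (3.70 ± 0.694, adjusted *P* 0.00285), and *Casd1*, which acetylates sialic acids, was the other gene called higher. These 2 of 8 were close to the 25.5% of all genes called in either direction. None of the 3 tested sialidases was called by the QL test, with 1 at an unadjusted *P* under 0.05 and 1 called by each of the likelihood ratio test and DESeq2. Over all 18323 genes the same counts were 4664, 6939, 5524 and 5697.

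The protein carriers of ligands went both ways. *Ptprc* (CD45), *Selplg*, *Cd52* and *Spn* (CD43), all of leukocytes, were called higher in WT macrophages, and *Cd24a* and *Muc1*, both abundant on epithelium, were called lower. The leukocyte genes lay under the filter in MECs, so their calls describe where they were detected. *Cd24a*, a carrier of ligands of Siglec-G, was at 214 CPM in macrophages and 1040 CPM in MECs, a log2 fold change of -2.28 ± 0.221 (adjusted *P* 3.31e-05).

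Over these pathway lists together, no gene of the 40 tested was called between the macrophage genotypes by the QL test, the likelihood ratio test or DESeq2. Of these 40 genes 7 had an unadjusted *P* under 0.05, against 1534 of all 17772 genes. The median log2 fold change of the 40 was 0.13. In MECs 31 of the listed genes were tested and none was called by any of these tests. Of the 31, 1 had an unadjusted *P* under 0.05, against 851 of all 15698 genes, and the median of the 31 was -0.05. The QL test called 8 of all 15698 genes there (0.051%), with 0.0446% higher and 0.00637% lower in CebpbΔM. The Siglec genes themselves lay under the filter in MECs. *Siglech* had 2 and 0 counts in WT and 4 and 2 in CebpbΔM MECs, *Siglece* had 1 and 1 against 3 and 4, and *Cd22* had 0 in all 4 libraries, so a genotype difference was not detectable at this depth, where 3 counts are 0.111 to 0.119 CPM.

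The family genes outside the 7 behaved differently. *Mag*, the myelin-associated glycoprotein known from myelinating glia, was read at similar levels in both cell types, at 5.07 and 6.71 CPM in WT macrophages and 5.5 and 2.98 CPM in WT MECs. Its log2 fold change between the cell types was 0.33 ± 0.578 (adjusted *P* 0.721), and between the macrophage genotypes 0.21 ± 0.524 (adjusted *P* 0.953). *Siglec15*, a DAP12-coupled receptor of osteoclasts, had at most 6 counts in any library.

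Across the 6 macrophage libraries, the genes whose log2 CPM followed that of *Siglech* most closely were *Rchy1* (Pearson's r = 0.993), *Nxf1* (0.992), *Lrrc25* (0.991), *Mndal* (0.99) and *Sgpl1* (0.989). Spearman's rho was 1 for *Lrrc25* and *Mndal* and 0.943 for the other 3. With 6 libraries of 2 genotypes that also differ in macrophage marker levels, 134 of the 17772 genes had an r above 0.95, and no *P* is given. Among the members, *Siglech* was closest to *Cd33* (r = 0.891) and *Siglec1* (0.8) and least close to *Cd22* (0.316).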

How the data were processed

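Counts came from 10 libraries of F4/80-selected macrophages and MECs. The authors trimmed reads with Trimmomatic and mapped them to GRCm38 with HISAT2. Per the file headers, featureCounts (version 1.6.2) assigned reverse-stranded read pairs to Ensembl release 100 genes, requiring a minimum mapping quality of 10. The authors deposited raw counts, one whole number per gene and library.

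Genes under 300 nt (8951) were removed before scaling, and a gene entered a fit when it exceeded 1 CPM in 2 or more of its libraries. CebpbΔM was compared with WT in each cell type, and macrophages with MECs in WT, by edgeR's QL test (version 4.0.16, R version 4.3.3) with TMM normalization and Benjamini-Hochberg adjustment over all genes tested. The study names the likelihood ratio test, run here as an alternative, as were DESeq2 (version 1.42.0), relative log expression (RLE) normalization, other filters, other sets of libraries and a replicate block. Levels are TMM-scaled CPM, log2 CPM used a prior count of 2, and 3 counts were taken as the floor. Symbols matched 55141 of 55487 genes. Scripts were tested on simulated data. Python (version 3.11.15) searched promoters, and matplotlib (version 3.10.9) drew plots.

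The members, lists, motifs and tests were chosen with earlier results of these data known. The rule for naming genes takes the family, the genes most like each member over the macrophage libraries (5 for *Siglech*, 3 for each other member with at least 50 counts in a library), defining markers, and up to 5 called genes per list and comparison. *Mertk*, *Adgre1* and *Csf1r* scaling was added after the data were seen. *Tyrobp*, *Hcst*, *Ptpn6* and *Ptpn11* between macrophage genotypes or uncalled, *Bank1*, *Fcmr*, *Ear2*, *Alox15*, *Ly6d*, *Tcf4*, *Sdc1*, *Jchain*, *Igha*, *Kit*, *Mmp9*, *Cd209a*, *Krt18* and *Csn2* values and the shared promoter run were named after their values were seen. No library pair was identical (0 pairs). The values of 1 defining marker gene are not reported here.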

Additional observations from a re-analysis of the deposited data

How the results depend on the processing

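Between macrophage genotypes, the QL test called 0 Siglec genes with RLE, with edgeR's filterByExpr, with no filter, with all 10 libraries in a fit, with marker scaling (added after seeing the data) and without each library in turn (0 to 0), whereas the likelihood ratio test called 1 and DESeq2 2. Over all genes these tests called 138 and 201 against 0. Marker scaling moved the median of all genes to -0.63 and gave 1.2 for *Siglech*, 0.02 for *Siglec1*, 0.15 for *Cd33* and -0.01 for *Siglece*. Without 1 library, the log2 fold change of *Siglech* was 1.5 to 2.22, of *Siglec1* 0.20 to 1.11, of *Cd33* 0.68 to 0.87, of *Siglece* 0.30 to 0.84 and of *Siglecf* 0.84 to 1.40. Without WT library 4, *Siglecg* and *Cd22* stood at 0 in WT and gave no value. Between the cell types 5 Siglec genes were called, and 5 to 7 without 1 library or under the other settings. *Siglecg* and *Cd22* were the genes that changed side. Both were called by the likelihood ratio test, by DESeq2 and without WT macrophage library 5, and *Siglecg* also with no filter and without CebpbΔM macrophage library 4. Over all genes 4664 were called there, against 2733 without WT MEC library 1, 2456 without WT MEC library 3 and 3041 without WT macrophage library 5. In MECs 0 were called, and 0 were tested with the filter used. Calls over all genes were 8 there, against 179 with the likelihood ratio test, 161 with DESeq2, 38 with no filter, 0 with all 10 libraries, 42 and 337 without CebpbΔM library 1 and 3, and 98 and 2 without WT library 1 and 3. The cause of these changes was not tested.

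The labels share replicate numbers 4 and 5 between macrophage groups and 1 and 3 between MEC groups, without saying what a number marks. Deviations of same-numbered libraries from their group means correlated at 0.128 and -0.0858 in macrophages and at 0.106 and 0.106 in MECs. With 2 libraries in each MEC group, both MEC values are the same by construction. The libraries were taken to share only a number, but these values do not settle what it marks. With the replicate block 0 Siglec genes were called in either cell type, all-gene calls were 12 in macrophages and 205 in MECs, and the log2 fold change of *Siglecf* was 0.42 and of *Cd22* 2.85. No paired analysis was possible because the groups share no replicate number in the cell type comparison.

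Depth limits *Siglecf*, *Siglecg* and *Cd22* most, with at most 96 counts in any library.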

Other observations

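The genes closest to the other members in log2 CPM over the 6 macrophage libraries differed from member to member. For *Siglec1* they were *Gm11722* (Pearson's r = 0.996), *Tatdn3* (0.994) and *Ppm1e* (0.992), with 70 genes above 0.95. For *Cd33* they were *9830107B12Rik* (0.991), *BE692007* (0.99) and *Rbbp5* (0.985), with 50 genes above 0.95. For *Siglece* they were *4833418N02Rik* (0.995), *Wdr41* (0.993) and *Gm42501* (0.986), with 32 genes above 0.95. *Siglecf* was followed most closely by *Gm37500* (0.983), *Cd200r1* (0.974) and *Trmt12* (0.973), and *Siglecg* by *Zfp759* (0.992), *Zcchc4* (0.99) and *Pfdn5* (0.981). These are descriptions over 6 libraries in which genotype and macrophage marker levels go together, and no *P* is given.

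Other lists of the macrophage libraries were read for the cells the selection could hold. Between the macrophage genotypes no gene of the lists for conventional dendritic cells, monocytes, neutrophils, mast cells, T cells, NK cells and plasma cells was called by the QL test. The tested genes numbered 7, 5, 3, 5, 3, 1 and 5, in that order. Of them 2, 0, 1, 0, 0, 0 and 4 had an unadjusted *P* under 0.05, against 1534 of all 17772 genes. The likelihood ratio test called no gene of these lists, and DESeq2 called 1 plasma cell gene. The conventional dendritic cell list summed to 176 and 262 CPM in WT and 253 to 532 CPM in CebpbΔM macrophages. Most of it was *Cd209a*, with means of 162 CPM in WT and 323 CPM in CebpbΔM macrophages. Of its 7 tested genes 5 had positive log2 fold changes, and the defining genes *Flt3* and *Zbtb46* had 0.03 and -0.31. The monocyte list summed to 220 and 222 CPM in WT and 219 to 302 CPM in CebpbΔM macrophages. Only *Ccr2* of its 5 tested genes had a positive log2 fold change (0.47 ± 0.241), and the list's median was -0.335. *Ly6c2* was at 6.43 and 5.91 CPM in WT and 3.71 to 5.37 CPM in CebpbΔM libraries. The neutrophil list, in which *Ly6g* was at 0 in every library, summed to 89.5 and 92.4 CPM in WT and 111 to 170 CPM in CebpbΔM macrophages. Most of it was *Mmp9*, with means of 62.3 CPM in WT and 98 CPM in CebpbΔM macrophages. The mast cell list summed to 146 and 213 CPM in WT and 110 to 227 CPM in CebpbΔM macrophages. Most of it was *Kit* (121 CPM in WT and 119 CPM in CebpbΔM macrophages), which was at 198 CPM in WT MECs. The T cell list summed to 4.7 and 9.54 CPM in WT against 9.82 to 12.9 CPM in CebpbΔM macrophages. For the NK cell list the sums were 2.66 and 4.47 CPM against 0.387 to 2.22 CPM. The plasma cell list summed to 317 and 340 CPM against 213 to 276 CPM, but nearly all of it was *Sdc1* (327 CPM in WT and 233 CPM in CebpbΔM macrophages), which was at 741 CPM in WT MECs. The other 4 of its 5 tested genes had positive log2 fold changes. *Jchain* had 0 counts in both WT libraries and 82, 34, 20 and 0 counts in CebpbΔM libraries 4 to 7, a mean of 1.77 CPM. *Igha* was at 0 CPM in WT and had a mean of 4.94 CPM in CebpbΔM macrophages (log2 fold change 9.54 ± 3.53). Both genes passed the filter through CebpbΔM libraries alone. The part of the cells of these lists in the Siglec values was not tested.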
